A study of Mus musculus with 30 samples.

Results

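The cytochrome P450 genes encode haem enzymes that insert an oxygen atom into steroids, fatty acids, vitamins, drugs and other small molecules. They were taken here as every row of the count tables whose mouse symbol is Cyp followed by a number, a subfamily letter and a number, with nothing after it. The rule found 94 of 57133 genes, in 16 families and 39 subfamilies. Cyp51, the other P450 genes with symbols of another form, and pseudogenes lie outside it. Of the 94 members, 42 from 24 subfamilies reached a group mean of at least 1 CPM (a count scaled to a common library size) in some group and are described by level. The other 52 stayed below that, and 9 of them had no count in any library.

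The data are 30 RNA-seq libraries, made by poly-A selection from mouse kidney tissue. Wild-type (WT) libraries were set beside transgenic ones (TG), labelled Gsta2-H2BeGFP. Column headers of the injury table also carry the name HNF4aEGsta2, whose meaning the labels do not give. There were 3 WT and 3 TG libraries of each sex without surgery, 3 WT and 3 TG libraries of males after nephrectomy (NX), and 6 WT and 6 TG libraries of males with nephrectomy and ischemia-reperfusion injury (NX+IRI in the labels, IRI here), 4 hours after it. The IRI groups thus carry the nephrectomy of the NX groups too. Nephrectomy removes a kidney, and in IRI the blood flow to the kidney is stopped and let back. The labels give no age and no time for NX, and they do not say whether libraries came from separate animals, so p-values measure the spread between libraries, which may be technical. The no-surgery libraries and the NX and IRI libraries were deposited as separate tables. A surgery effect against no surgery and a table effect therefore cannot be told apart, and levels in the tables are only set side by side. In bulk tissue RNA, fewer cells of a type and less RNA per cell cannot be told apart.

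In the kidney, P450 enzymes are known mainly from the proximal tubule. Members of the Cyp2c and Cyp2j subfamilies form epoxides from arachidonic acid, and Cyp4a and Cyp4f members hydroxylate the end of fatty acid chains, which yields lipid mediators of vessel tone and salt transport. The mitochondrial enzymes Cyp27b1 and Cyp24a1 make and break down the hormone form of vitamin D. Many rodent P450 genes are known to differ between the sexes under the control of androgens and of the pattern of growth hormone secretion.

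Several libraries stood apart. Of the WT libraries, WT IRI replicate 1 held 206 counts of the green fluorescent protein entry, while the other WT libraries held 0 and the TG libraries 86 to 1294; it is called the library labelled WT IRI replicate 1 below. WT IRI replicate 5 had the highest summed distal nephron markers of its group (9180 CPM). TG NX replicate 1 differed from both other libraries of its group in several Cyp4a genes. Replicates are numbered from 0. Total counts were 49040915 to 66446450 in no-surgery libraries and 59574069 to 91354407 in the others. Adrenal marker genes summed to 1.57 to 5.23 CPM in every library, and the liver marker genes to 64.3 to 529 CPM. Among the adrenal and gonadal steroid enzymes, Cyp11a1, Cyp11b1, Cyp11b2, Cyp19a1 and Cyp21a1 had no group mean above 0.085 CPM. Cyp17a1, which makes androgen precursors, reached 0.69 CPM.

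To show the DNA beside the values, the 250 bases before the start of 5 genes that differed between the sexes follow, from RefSeq on GRCm38.p6; the deposited positions are on GRCm39. They are the Cyp2j13, Cyp2j5 and Cyp2j6 genes of the same cluster, of which the first was nearly silent in females, the second lower and the third higher, and the 2 most abundant genes that were lower in females. Each runs 5′ to 3′ on the gene's strand, and capitals mark matches to any of 4 motifs on either strand. These are the core promoter motif TATAAA, the growth hormone signal motif TTCNNNGAA of the STAT5 factors, the androgen receptor motif TGTTCT in its single-copy form, and the nuclear receptor motif AGGTCA. No matches overlap in the windows shown. Cyp2j13 has 2 promoter entries, of which 1 is shown. Of the 94 members 73 had a promoter entry, and 30 of the 42 described.

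Cyp2j13, minus strand, chr4:96077541-96077790: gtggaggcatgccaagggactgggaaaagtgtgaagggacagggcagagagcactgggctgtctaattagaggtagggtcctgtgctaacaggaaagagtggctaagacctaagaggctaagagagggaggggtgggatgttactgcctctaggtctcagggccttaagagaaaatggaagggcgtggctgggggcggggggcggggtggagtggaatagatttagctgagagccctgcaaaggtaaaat
Cyp2j5, minus strand, chr4:96664120-96664369: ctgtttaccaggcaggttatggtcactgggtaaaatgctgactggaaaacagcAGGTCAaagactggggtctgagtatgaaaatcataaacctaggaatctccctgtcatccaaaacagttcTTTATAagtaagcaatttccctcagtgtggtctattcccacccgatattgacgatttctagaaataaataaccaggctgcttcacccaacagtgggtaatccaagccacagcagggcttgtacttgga
Cyp2j6, minus strand, chr4:96553652-96553901: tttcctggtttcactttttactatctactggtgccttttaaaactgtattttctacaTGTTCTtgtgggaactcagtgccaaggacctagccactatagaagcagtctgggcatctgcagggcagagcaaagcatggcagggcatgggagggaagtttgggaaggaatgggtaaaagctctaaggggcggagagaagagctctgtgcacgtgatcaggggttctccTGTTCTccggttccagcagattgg
Cyp4b1, minus strand, chr4:115647722-115647971: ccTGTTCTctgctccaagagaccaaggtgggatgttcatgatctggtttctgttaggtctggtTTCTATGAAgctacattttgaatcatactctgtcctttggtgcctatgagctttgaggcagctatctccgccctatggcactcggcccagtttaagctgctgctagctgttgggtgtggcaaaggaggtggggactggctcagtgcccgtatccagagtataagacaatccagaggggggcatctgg
Cyp2e1, plus strand, chr7:140763569-140763818: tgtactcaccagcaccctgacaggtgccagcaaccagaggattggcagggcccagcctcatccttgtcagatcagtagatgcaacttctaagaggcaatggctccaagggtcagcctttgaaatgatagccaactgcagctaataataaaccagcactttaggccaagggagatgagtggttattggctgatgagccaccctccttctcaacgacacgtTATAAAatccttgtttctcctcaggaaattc

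In the window shown, Cyp2j13 held none of the 4 motifs. Cyp2j5 held TATAAA on the other strand and AGGTCA, Cyp2j6 held TGTTCT at 2 places, Cyp4b1 held TGTTCT and TTCNNNGAA, and Cyp2e1 held TATAAA between 31 and 26 bases before the start. For counts over members, whole promoter entries were searched instead of the windows shown, and a member counted if any of its entries held the motif. Among the 9 members lower in WT females that have an entry, 4 held TATAAA, 1 TTCNNNGAA, 3 TGTTCT and 2 AGGTCA. Among the 5 members higher in WT females with an entry, the numbers were 1, 0, 2 and 0. Over all 32851 entries the shares, counted per entry and not per gene, were 13.6%, 8.3%, 19% and 16.3%, in that order. A match is a run of letters and no measured site.

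The summed CPM of the family was lower in females, and 3 abundant genes carried the difference. Summed over the 94 members, the level was 8917 ± 1106 CPM in WT males and 3782 ± 330 CPM in WT females (SD, n = 3 each), and 8869 ± 1370 and 3911 ± 128 CPM in TG males and females. In both genotypes, no male library came down to the highest female one. After NX the sum was 12962 ± 1270 CPM in WT and 11169 ± 984 CPM in TG libraries (n = 3 each), and after IRI 9725 ± 767 and 10146 ± 494 CPM (n = 6 each). Cyp4b1, which oxidises fatty acids and foreign compounds, Cyp2e1, the ethanol-oxidising P450, and Cyp2j5, an arachidonic acid epoxygenase, held 69.4% of the WT male sum but 36.3% of the WT female sum. Without these genes the other 91 members summed to 2594 to 2802 CPM in WT males and 2218 to 2623 CPM in WT females, which overlap. In TG the ranges were 1956 to 2858 and 2403 to 2625 CPM and overlapped too.

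**Figure D1:**
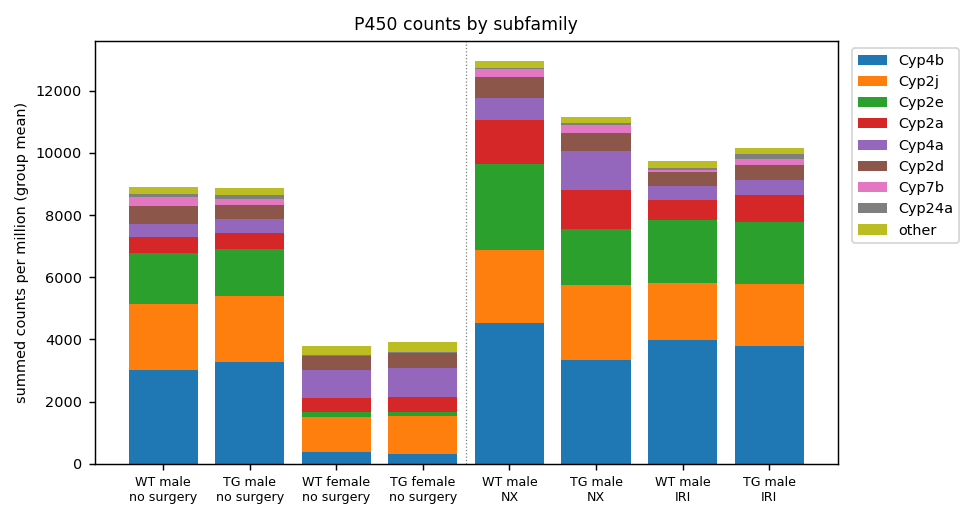
Stacked bars of group mean CPM for the 8 subfamilies with the highest mean and for all other members, in the 8 groups; the dotted line separates the deposited tables. The female bars reach 3782 and 3911 CPM against 8917 and 8869 CPM in males, and their Cyp4b and Cyp2e blocks are thin.

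Levels of different genes are compared per kilobase of exon. In WT males the highest members by CPM per kilobase were Cyp4b1 (1336), Cyp2e1 (758), Cyp2j5 (656), Cyp2a4 (206), Cyp7b1 (136) and Cyp2j11 (126). In WT females Cyp2j5 (364) and Cyp2d26 (195) led on that scale, followed by Cyp4b1 (163), Cyp4a10 (149), Cyp4a14 (143) and Cyp2a4 (138). After NX and IRI, all in males, Cyp4b1, Cyp2e1, Cyp2j5 and Cyp2a4 were the top 4 in each group.

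The largest subfamily, Cyp2c with 15 members, had only Cyp2c23 and Cyp2c69 at 1 CPM or more. The subfamily summed to 29.5 CPM in WT males, 53.5 CPM in WT females and 100.4 CPM in TG females. None of the 7 Cyp3a genes reached 1 CPM, a subfamily known for drug oxidation in liver. In contrast, 6 of 8 Cyp2j, 6 of 9 Cyp4f, 4 of 5 Cyp4a and 4 of 8 Cyp2d genes did. Cyp1b1, a P450 of polycyclic and steroid substrates, lay at 27.5 ± 4.56 CPM in WT males, 26.4 ± 8.74 CPM in WT females, 15.9 ± 5.88 CPM after NX and 15.7 ± 3.27 CPM after IRI in WT. Cyp39a1, an oxysterol hydroxylase, lay at 11.6 ± 3.89, 12.4 ± 0.96, 5.88 ± 0.61 and 6.77 ± 1.10 CPM in the same order. Neither was called between the sexes or between NX and IRI. The bile acid enzyme Cyp7a1 and the aromatase Cyp19a1 had 0 counts in all 30 libraries.

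The sex comparison without surgery changed the most members. Of the 55 members tested in WT, 21 (38.2%) passed an adjusted p of 0.05, 10 higher and 11 lower in females, beside 21.3% of all 19126 genes tested, of which 10.1% were higher and 11.3% lower. In TG, 20 of 55 passed (36.4%, beside 21.2% of all genes), 10 in each direction, beside 9.87% of genes higher and 11.3% lower. The median log2 change of the tested members was -0.00143 in WT and 0.227 in TG, against 0.0291 and 0.0217 over all genes. Of the members higher in females, 9 were called in both genotypes, 90% of each list; of those lower, 9 were shared, 81.8% of the WT and 90% of the TG list. No member was called in opposite directions. The genotypes have separate libraries here. The overlap of WT and TG calls over all genes was not counted, so these shares cannot be set against it.

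The steepest difference was in Cyp2j13 (ENSMUSG00000028571, chr4:95915771-95965783, minus strand), a member of the epoxygenase cluster. Its level was 349, 307 and 210 CPM in the WT male libraries and 0.87, 0.67 and 1.43 CPM in the WT female ones. The sexes were far apart, with no overlap. The log2 change was -8.18 ± 0.37 (adjusted p = 2.82e-08), and in TG -8.82 ± 0.38 (adjusted p = 2.26e-08).

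Next came Cyp7b1, the oxysterol 7-alpha-hydroxylase, which also metabolises androgen products (ENSMUSG00000039519, chr3:18126114-18297502, minus strand). WT males had 342, 230 and 309 CPM and WT females 2.60, 3.20 and 4.24 CPM. Male and female ranges did not overlap, in TG either. Its log2 change was -6.45 ± 0.22 in WT (adjusted p = 3.25e-09) and -5.89 ± 0.22 in TG (adjusted p = 6.55e-09).

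Cyp2e1 fell, from 1761, 1887 and 1261 CPM in WT males to 160, 146 and 146 CPM in WT females. The log2 change was -3.44 ± 0.20 (adjusted p = 2.75e-07) in WT and -3.50 ± 0.20 (adjusted p = 2.36e-07) in TG. Cyp4b1 gave 3420, 3317 and 2304 CPM in WT males and 457, 328 and 319 CPM in WT females, again without overlap. Its change was -3.03 ± 0.20 (adjusted p = 6.55e-07) in WT and -3.34 ± 0.20 in TG (adjusted p = 3.13e-07).

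The Cyp2d subfamily was split. Cyp2d9, a male-type steroid hydroxylase in mouse liver, had 236, 264 and 276 CPM in WT males and 29.4, 16.5 and 25.4 CPM in WT females (log2 change -3.45 ± 0.34, adjusted p = 1.75e-05). Cyp2d12 was lower in WT females by -1.66 ± 0.45, with 117, 99.5 and 39.6 against 28.2, 29.4 and 23.7 CPM. Other members of the subfamily moved the other way: Cyp2d26 and Cyp2d22 rose by 0.78 ± 0.09 and 1.03 ± 0.09 in WT females.

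Cyp2j showed the same split: Cyp2j5 was lower by -0.85 ± 0.08 and Cyp2j9 by -0.70 ± 0.22 in WT females, while Cyp2j6 was higher by 0.29 ± 0.08. Cyp2j5 held 1632, 1503 and 1482 CPM in WT males and 912, 828 and 822 CPM in WT females. Cyp2j11, whose levels in WT males (241 ± 7.3 CPM) and WT females (233 ± 27.7 CPM) lay close together, was not called. Of the lower-level members, Cyp2f2 was lower by -2.56 ± 0.30 and Cyp4a32 by -1.82 ± 0.40. Cyp2b10 passed the test too, on 26, 29 and 6 counts in WT males against 0, 0 and 2 counts in WT females, too few for a fold.

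**Figure D2:**
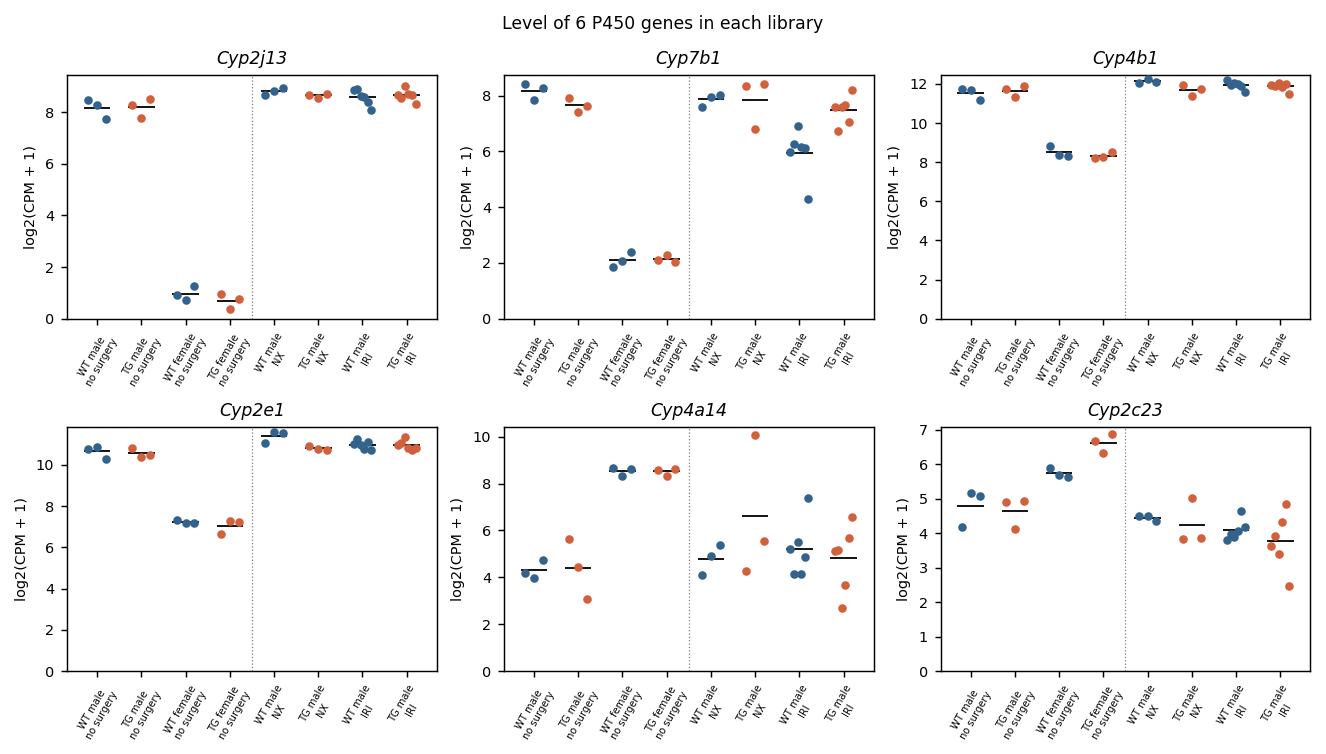
Level as log2(CPM + 1) of 6 P450 genes in each of the 30 libraries, blue for WT and orange for TG, with black lines at the group means of the log values. Cyp2j13 and Cyp7b1 lie near the bottom of the axis in all 6 female libraries, and Cyp4a14 is high in the 6 female libraries and in TG NX replicate 1 (1062 CPM).

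Among the genes higher in females, Cyp4a14, a fatty acid omega-hydroxylase (ENSMUSG00000028715, chr4:115343397-115353339, minus strand), stood first. It had 17.3, 14.7 and 25.6 CPM in WT males and 402, 321 and 389 CPM in WT females. The sexes did not overlap in TG either, at 7.38 to 48.9 against 321 to 395 CPM. Its log2 change was 4.27 ± 0.51 in WT (adjusted p = 7.57e-05) and 3.84 ± 0.50 in TG (adjusted p = 0.000173).

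Another member of that cluster, Cyp4a10, was higher by 0.62 ± 0.17, and Cyp4a31 was not called (221 ± 2.05 CPM in WT males, 235 ± 24.6 CPM in WT females). Cyp4f14, another fatty acid hydroxylase, had 2.05, 2.26 and 2.79 CPM in WT males and 7.58, 8.02 and 9.13 CPM in WT females (1.80 ± 0.26, adjusted p = 0.000346). Cyp4f16, on the same chromosome, rose by 0.66 ± 0.14 in WT. Cyp2c23, the main arachidonic acid epoxygenase of the rodent kidney, had 16.97, 34.7 and 32.7 CPM in WT males and 58.8, 50.4 and 48.3 CPM in WT females. Its change was 0.90 ± 0.26 (adjusted p = 0.0265) in WT and 1.98 ± 0.27 (adjusted p = 0.00024) in TG. The remaining calls in WT were Cyp2u1 (0.75 ± 0.18) and Cyp2s1 (0.31 ± 0.09).

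Cyp2d12, Cyp2j9 and Cyp4f16 were called in WT alone, and Cyp24a1 (-1.99 ± 0.63) and Cyp2a5 (1.09 ± 0.25) in TG alone. The split of Cyp24a1 depended on the fit. With only the groups compared, it was called in WT (-1.65, adjusted p = 0.000989) and not in TG (-1.98, adjusted p = 0.104). Leaving out 1 library at a time moved its TG change between -3.44 and -1.51, with 2 of 6 fits past the threshold. The test of the difference between genotypes, the interaction term, called no member (0 of 55, beside 0.00523% of all genes; 3 had an unadjusted p under 0.05, beside 8.58%, and DESeq2 called none, beside 0.491%). The smallest interaction p belonged to Cyp2c23, at 1.08 ± 0.37 (adjusted p = 0.468).

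**Figure D3:**
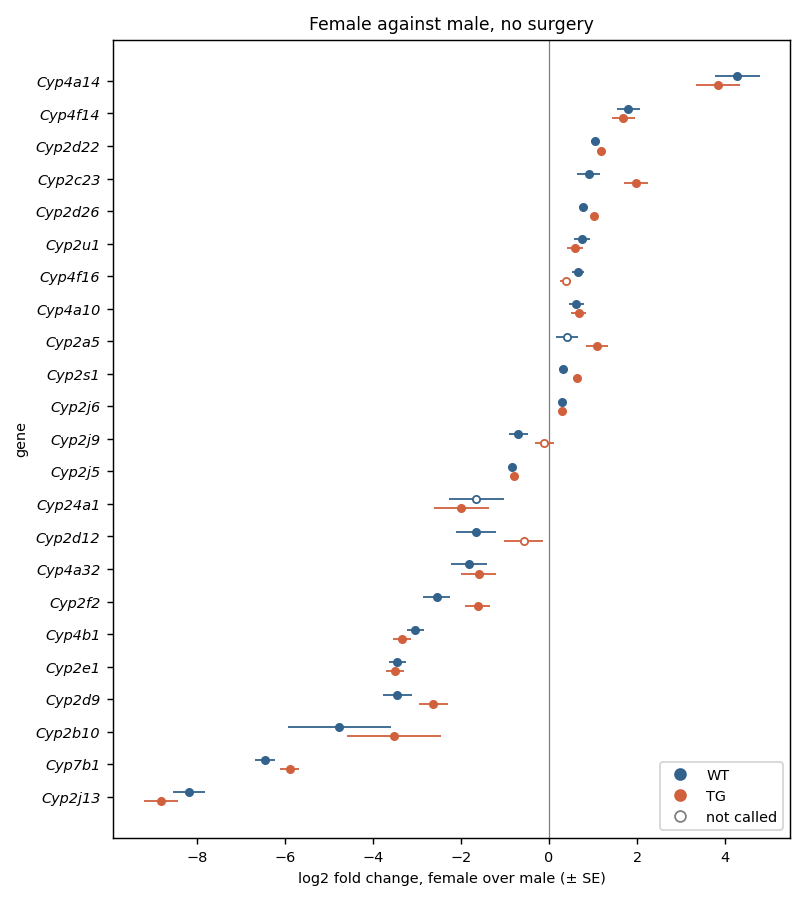
Log2 fold change of females over males, with SE bars, for each member called in WT (blue) or TG (orange); open circles did not pass the test in that genotype. The estimates of both genotypes lie on the same side of 0 for every gene drawn.

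Several marker lists moved with sex. Of 6 distal nephron markers 5 were higher in WT females, with summed levels of 4835 to 6653 CPM in WT males and 8867 to 9365 CPM in WT females. The 10 proximal tubule markers summed to 14174 to 18487 CPM in WT males and 14398 to 16097 CPM in WT females, with 2 higher and 2 lower. Of 6 liver markers tested, 1 was higher and 3 were lower in WT females. The liver list summed to 150 to 262 CPM in WT males and 64.3 to 93.1 CPM in WT females. In TG females 2 liver markers were higher and 1 was lower. Fat markers reached 244 CPM in WT female replicate 1 and 255 CPM in TG male replicate 1, against at most 113 CPM in the other no-surgery libraries. Without both, Cyp2j6 (adjusted p = 0.0711) and Cyp2j9 (0.103) lost their WT calls, and Cyp2j6 (0.0804) and Cyp2u1 (0.119) their TG calls. The part of the other lists in the P450 differences was not tested.

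Genes that work with the P450s also differed by sex in WT. Of 6 redox partners, which hand electrons to the enzymes, 2 were higher and 4 lower in females, the largest change being in Cyb5a (-0.95 ± 0.10), the microsomal cytochrome b5. Ephx2, the soluble hydrolase that breaks down the epoxides, was lower (-1.49 ± 0.10), and the other epoxide hydrolase was not called. Of 8 haem synthesis genes, 2 were higher, including the rate-limiting Alas1 (0.93 ± 0.17), and 2 lower, including Cpox (-1.36 ± 0.12). Of 8 tested receptors and factors that switch on P450 genes, 2 were higher and 3 lower, led by the xenobiotic receptor Nr1i2 (0.86 ± 0.16).

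P450 genes outside the rule differed as well. Cyp4a12a, the renal arachidonic acid omega-hydroxylase, was at 112 ± 55.8 CPM in WT males and 1.81 ± 0.71 CPM in WT females (-5.94 ± 0.48), and Cyp4a12b changed by -2.99 ± 0.32. The prostacyclin synthase Ptgis was higher in WT females (0.94 ± 0.21). Cyp51, of sterol synthesis, and the thromboxane synthase Tbxas1 were not called, at 333 ± 15.3 against 336 ± 42.7 CPM and 13.97 ± 0.93 against 9.10 ± 2.60 CPM in WT males against WT females.

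After IRI, more members were lower than higher relative to NX. In WT, 15 of 56 tested members passed (26.8%, beside 30.9% of all 19264 genes), 3 higher and 12 lower. In TG 13 of 56 passed (23.2%, beside 29.4% of all genes), 4 higher and 9 lower. The share of members called was thus close to that of all genes in both genotypes. By direction, 14.1% of all genes were lower and 16.8% higher in WT, and 13% and 16.4% in TG. Without the library labelled WT IRI replicate 1, 15 members were called in WT, and without replicate 5, 16 were; each time 13 of these were among the first 15. The median log2 change of the members was -0.235 in WT and -0.175 in TG, against -0.00659 and -0.00732 over all genes.

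Cyp7b1 had the largest fall in WT. It was at 195, 247 and 260 CPM after NX and at 18.7 to 118 CPM, median 69.6, after IRI. No WT IRI library reached the lowest WT NX library. The change was -1.76 ± 0.38 (adjusted p = 0.00165), -1.79 without the library labelled WT IRI replicate 1, and -1.56 without replicate 5. In TG it was at 329, 110 and 344 CPM after NX and 106 to 293 CPM after IRI, which overlap, with a change of -0.49 ± 0.39 that did not pass. Leaving out 1 library at a time gave TG changes of -0.85 to -0.24, and 0 of 9 fits passed. The TG change passed, at -0.85 (adjusted p = 0.0322), with WT IRI replicates 1 and 5 and TG NX replicate 1 left out together. That alternative was chosen after seeing the data.

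Both Cyp2a genes, coumarin and steroid hydroxylases, were lower in WT. Cyp2a5 was at 420, 491 and 475 CPM after NX and 134 to 243 CPM, median 183, after IRI (-1.37 ± 0.32, adjusted p = 0.00271). Cyp2a4 was at 982, 1027 and 906 CPM after NX and 327 to 555 CPM, median 485, after IRI (-1.04 ± 0.17, adjusted p = 0.000159). Neither pair of ranges overlapped. They share sequence: 12.1% of the 100-base words of Cyp2a5 transcripts and 11.2% of those of Cyp2a4 also occur in other genes, so counts may be split between them. The share was 35.4% for Cyp2c69, 18.2% for Cyp4a32, 12.2% for Cyp4a10, 7.9% for Cyp2d9 and 7.3% for Cyp4a31, which carry the same limit.

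Cyp2d9 was at 337, 466 and 339 CPM after NX and 134 to 186 CPM, median 175, after IRI in WT (-1.20 ± 0.16, adjusted p = 1.41e-05). Cyp2u1, a fatty acid hydroxylase of low level, was at 4.82, 6.06 and 3.83 CPM after NX and 1.71 to 3.37 CPM, median 2.23, after IRI (-1.02 ± 0.21, adjusted p = 0.0011). In neither gene did the groups overlap. Cyp2u1 was also lower in TG, by -1.23 ± 0.21 (adjusted p = 0.000193).

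Of these largest falls in WT, the others did not pass in TG. The TG change was -0.72 ± 0.32 for Cyp2a5 (adjusted p = 0.101), -0.47 ± 0.18 for Cyp2a4 (adjusted p = 0.0515) and -0.39 ± 0.16 for Cyp2d9 (adjusted p = 0.0815).

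The other falls in WT were smaller: Cyp2f2 (-0.80 ± 0.23), Cyp4a31 (-0.72 ± 0.15), Cyp4f14 (-0.60 ± 0.22), Cyp2j11 (-0.49 ± 0.10), Cyp2e1 (-0.45 ± 0.14), Cyp2j5 (-0.39 ± 0.08) and Cyp27a1 (-0.28 ± 0.10), the mitochondrial sterol 27-hydroxylase. Of these, Cyp2f2, Cyp2e1 and Cyp27a1 overlapped between NX and IRI. Leaving out 1 library at a time kept the Cyp4f14 call in 2 of 9 fits and that of Cyp27a1 in 3 of 9. Cyp2e1 and Cyp2f2 kept theirs in 7 of 9. Cyp4b1, the most abundant member, was not called, with 4172, 4969 and 4468 CPM after NX and 3107 to 4646 CPM after IRI.

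The members higher after IRI in WT were few. Cyp2s1, known from epithelia and induced through the aryl hydrocarbon receptor, was at 13.2, 15.2 and 13.6 CPM after NX and 15.4 to 30.1 CPM, median 25.3, after IRI (0.79 ± 0.15, adjusted p = 0.000568), with no overlap. The leukocyte leukotriene hydroxylase Cyp4f18 was at 0.09, 0.15 and 0.21 CPM after NX and 0.69 to 3.02 CPM, median 0.97, after IRI (3.04 ± 0.81, adjusted p = 0.00733). Cyp26b1, which breaks down retinoic acid, was called at 1.998 ± 0.73 (adjusted p = 0.0431), but at 1.98, 5.10 and 0.16 CPM after NX and 2.25 to 18.8 CPM after IRI the groups overlapped, and without WT NX replicate 2 its adjusted p was 0.13. Of 9 fits with 1 library left out, 3 called it.

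**Figure D4:**
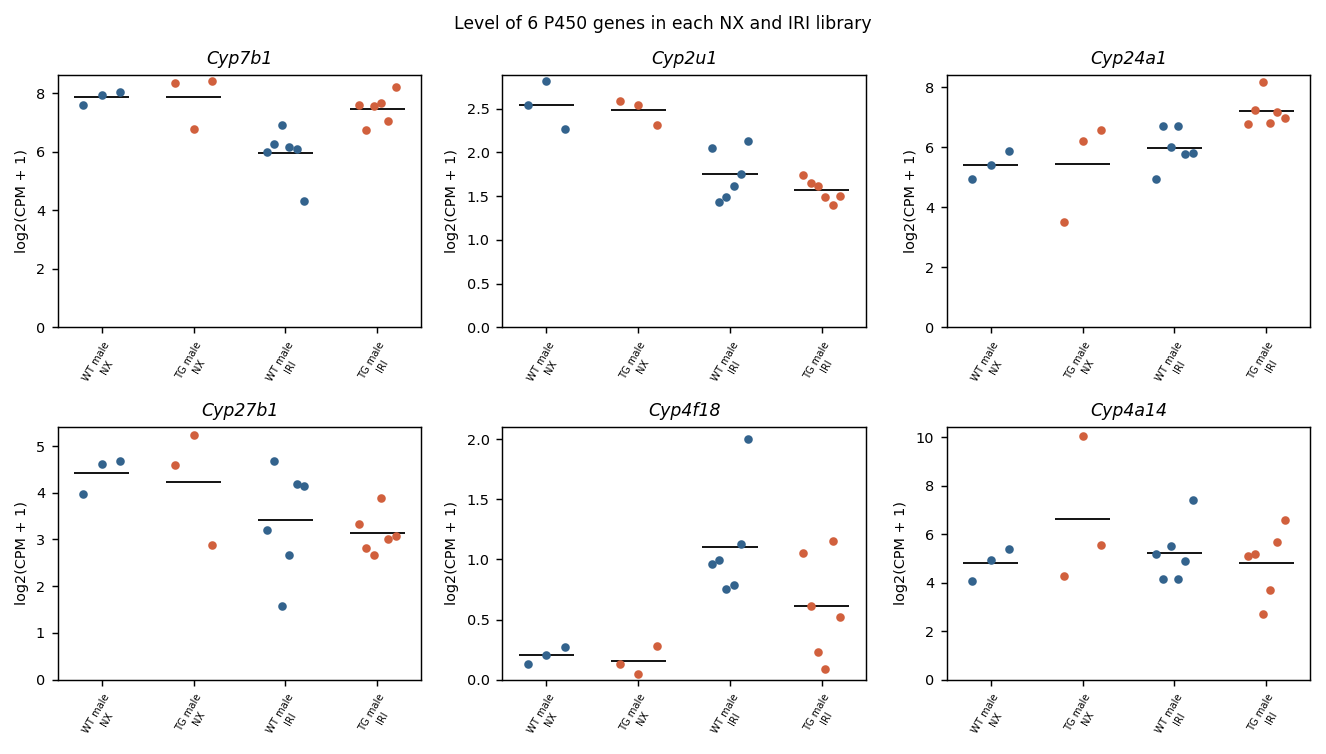
Level as log2(CPM + 1) of 6 P450 genes in each NX and IRI library of males, blue for WT and orange for TG, with black lines at the group means of the log values. Cyp2u1 is lower in every IRI library than in any NX library, and TG NX replicate 1 stands far above its group for Cyp4a14 (1062 CPM against 18.3 and 45.7 CPM).

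The list of calls differed in TG, although the interaction of genotype and injury called no member. Cyp4a14 had the largest fall (-3.29 ± 0.94, adjusted p = 0.0125), but it was at 18.3, 1062 and 45.7 CPM after NX and 5.47 to 94.6 CPM after IRI. Without TG NX replicate 1 the change was 0.27 ± 0.87 (adjusted p = 0.874). Cyp4a10, at 285, 1076 and 265 CPM after NX, changed by -1.33 ± 0.37, and by -0.35 ± 0.31 (adjusted p = 0.473) without that library. Leaving it out cut the TG calls from 13 to 7, of which 5 were among the 13. The third Cyp4a call in TG, Cyp4a31, went from -0.50 to -0.28 (adjusted p = 0.212), so none of the 3 was kept.

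Further falls in TG were those of Cyp1a1 (-2.10 ± 0.67), the dioxin-inducible P450, under 1 CPM in both groups; Cyp4a31 (-0.50 ± 0.15); Cyp2j11 (-0.43 ± 0.10); Cyp2j5 (-0.35 ± 0.08); and Cyp20a1 (-0.33 ± 0.12), a P450 without a known substrate. Without TG NX replicate 1, Cyp20a1 changed by -0.21 (adjusted p = 0.272). Higher were Cyp2s1 (0.85 ± 0.15), Cyp4f18 (2.34 ± 0.80) and Cyp3a13 (1.13 ± 0.41), the last at under 1 CPM. With 1 library left out at a time, the Cyp3a13 call held in 2 of 9 fits. Its adjusted p was 0.0977 without TG NX replicate 1. Called in both genotypes in the same direction were Cyp2s1, Cyp4f18, Cyp2j11, Cyp2j5, Cyp2u1 and Cyp4a31. Without TG NX replicate 1, Cyp4f18 (1.93, adjusted p = 0.137) and Cyp4a31 lost their TG calls. The genes called in both make up 66.7% of the higher and 33.3% of the lower WT calls, and 50% and 44.4% of the TG calls. For IRI too, the overlap over all genes was not counted.

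**Figure D5:**
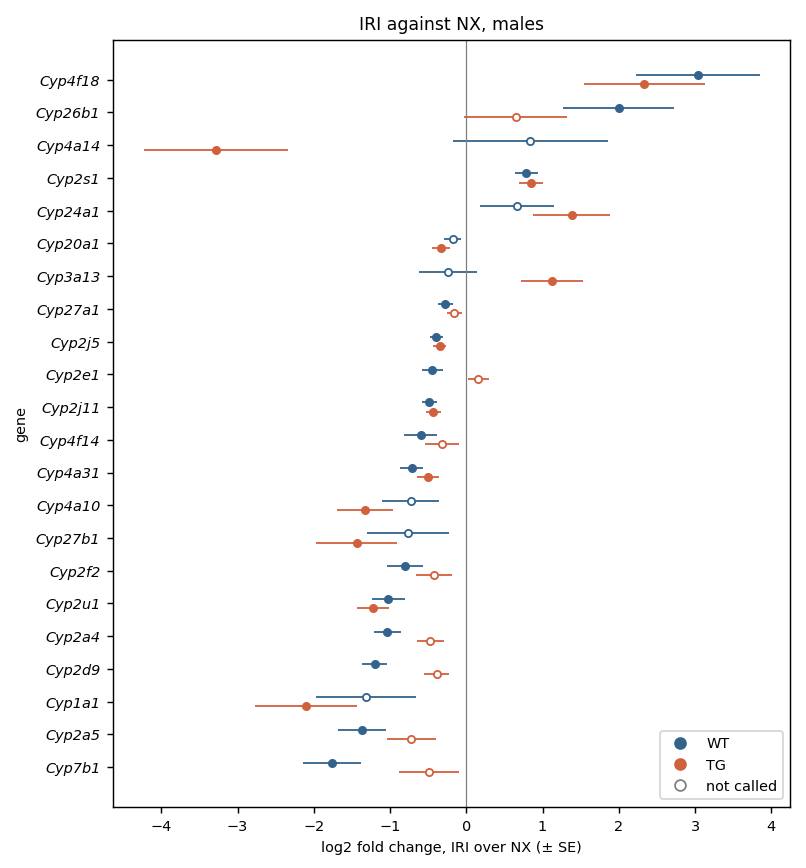
Log2 fold change of IRI over NX in males, with SE bars, for each member called in WT (blue) or TG (orange); open circles did not pass the test in that genotype. The wide bar of Cyp4a14 in TG (-3.29 ± 0.94) goes with the single high NX library.

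The vitamin D enzymes Cyp24a1 and Cyp27b1 were called in opposite directions in TG. Cyp24a1, the 24-hydroxylase that inactivates the hormone, was at 10.5, 73.4 and 94.2 CPM after NX and 109 to 290 CPM, median 135, after IRI (1.39 ± 0.51, adjusted p = 0.0453), with no overlap. Cyp27b1, the 1-alpha-hydroxylase that makes it, was at 23.2, 36.5 and 6.40 CPM after NX and 5.36 to 13.9 CPM, median 7.24, after IRI (-1.44 ± 0.53, adjusted p = 0.0486), with overlap. Neither was called in WT, where the means moved the same way. In WT Cyp24a1 was at 42.8 ± 13.9 CPM after NX and 67.9 ± 29.4 CPM after IRI, and Cyp27b1 at 20.98 ± 5.39 and 12.3 ± 8.57 CPM. Without TG NX replicate 0 the change of Cyp24a1 was 0.89 (adjusted p = 0.143). Without TG NX replicate 1 the adjusted p was 0.0793 for Cyp24a1 and 0.34 for Cyp27b1. Leaving out TG IRI replicate 2 gave Cyp24a1 an adjusted p of 0.0966, and DESeq2 gave Cyp27b1 an adjusted p of 0.0622. With 1 library left out at a time, 4 of 9 fits called Cyp24a1 and 2 of 9 called Cyp27b1 in TG. Without surgery Cyp24a1 was at 88.7 ± 20.6 CPM in WT males and 28.2 ± 6.64 CPM in WT females, a difference that was called in TG and not in WT (adjusted p = 0.0796), although the WT sexes did not overlap. With only the groups compared in the fit, these calls were exchanged.

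The interaction of genotype and injury called no member (0 of 56, beside 0% of all genes; 7 had an unadjusted p under 0.05, beside 9.59%, and DESeq2 called none, beside 0.265%). Its smallest p was that of Cyp2d9 (0.81 ± 0.24, adjusted p = 0.376).

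Of the 21 members called by sex and the 15 called by IRI in WT, 8 were on both lists, 38.1% and 53.3% of them. Over all genes 1583 were on both lists, 38.8% of the sex calls and 26.6% of the IRI calls. The libraries of these comparisons are separate. Lower in females and after IRI were 5 members, among them Cyp7b1, Cyp2d9, Cyp2e1 and Cyp2f2. Cyp4f14 and Cyp2u1 were higher in females and lower after IRI. The IRI call of Cyp4f14 held in 2 of 9 fits with 1 library left out.

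Marker genes moved with IRI too. Of 10 proximal tubule markers 4 were lower in each genotype and none higher. Their sum in WT was 17163 to 24130 CPM after NX and 14770 to 16813 CPM after IRI. Fat markers reached 874 CPM in WT NX replicate 0 and 0 to 22.8 CPM in the other WT NX and IRI libraries. Distal nephron markers, 3 of 6 higher in WT, summed to 3859 to 4818 CPM after NX and 5263 to 9180 CPM after IRI. In TG none of the 6 was called, at 4278 to 5918 and 4261 to 6264 CPM. Of 5 endothelial markers 2 were higher in WT, with sums of 197 to 253 CPM after NX and 204 to 416 CPM after IRI, and 1 was higher and 1 lower in TG. The part of these in the P450 changes was not tested.

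Of the partner genes in WT, 5 of 8 haem synthesis genes were lower after IRI and none higher, led by Uros (-0.43 ± 0.14), and 3 of 8 were lower in TG, led by Alas1 (-0.75 ± 0.23). The aryl hydrocarbon receptor Ahr, which switches on Cyp1 genes, was higher in WT (1.09 ± 0.17) and in TG (0.76 ± 0.17). Nr1i2 was higher in WT (0.79 ± 0.22), while Hnf4a (-0.45 ± 0.13), Rxra (-0.41 ± 0.10) and Vdr (-0.42 ± 0.12) were lower. In TG, Ahr was the only one of 7 tested receptors and factors called. Of 6 redox partners, 2 were higher in TG (Fdx1, 0.39 ± 0.08, and Por, 0.35 ± 0.11) and 1 lower (Cyb5b, -0.45 ± 0.07), against 0 and 1 in WT. In WT, Ephx2 changed by -0.41 ± 0.09 and the outer mitochondrial cytochrome b5, Cyb5b, by -0.48 ± 0.07. Cyp4a12a was lower in WT (-1.10 ± 0.39) and Cyp51 too (-0.54 ± 0.13).

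Between the genotypes no member passed the edgeR test in any of the 4 comparisons. Without surgery, 0 of 55 were called in males (beside 0.00523% of all genes; 4 had an unadjusted p under 0.05, beside 5.22%, and DESeq2 called none, beside 0.0732%) and 0 of 55 in females (beside 0.0418%; 3 under 0.05, beside 9.09%, and DESeq2 none, beside 1.15%). After NX 0 of 50 were called (beside 0.0117%; 6 under 0.05, beside 6.77%) and after IRI 0 of 49 (beside 0.0701%; 6 under 0.05, beside 14.1%). DESeq2 called 1 member after NX (beside 0.263% of all genes) and 4 after IRI (beside 2.12%).

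The smallest p in males without surgery was that of Cyp7b1, which gave 239, 171 and 197 CPM in TG against 342, 230 and 309 CPM in WT. The ranges overlapped, and the change was -0.54 ± 0.17 (adjusted p = 0.916). In females it was Cyp2c23, at 101.4, 79.3 and 116 CPM in TG against 58.8, 50.4 and 48.3 CPM in WT. These did not overlap, with a change of 0.91 ± 0.26 (adjusted p = 0.268).

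After NX it was Cyp2e1, at 1933, 1779 and 1677 CPM in TG and 2141, 3107 and 3028 CPM in WT. The groups did not overlap, the change was -0.62 ± 0.15 (adjusted p = 0.73), and DESeq2 called it (adjusted p = 0.014). Without WT NX replicate 0, the library with the fat markers, edgeR called it as well (-0.78 ± 0.09, adjusted p = 0.0356). In the same order of libraries, proximal tubule markers summed to 16909, 19705 and 16712 CPM in TG and 17163, 24130 and 21938 CPM in WT. Of these 10 markers 0 were called between the genotypes after NX. Their part in the Cyp2e1 difference was not tested.

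After IRI it was Cyp7b1, at 106 to 293 CPM, median 191, in TG and 18.7 to 118 CPM, median 69.6, in the libraries labelled WT. Only the lowest TG and the highest WT library overlapped. The change was 1.43 ± 0.32 (adjusted p = 0.107), and without the library labelled WT IRI replicate 1 it was 1.45 ± 0.36 (adjusted p = 0.138). DESeq2 called it (adjusted p = 0.0144), with Cyp2d9 (0.43 ± 0.11, adjusted p = 0.0123), Cyp20a1 (-0.35 ± 0.11, adjusted p = 0.0426) and Cyp24a1 (1.19 ± 0.36, adjusted p = 0.0451). DESeq2 was not run without the library labelled WT IRI replicate 1.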

How the data were processed

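The submitters' processing notes name fastp 0.23.2, STAR 2.7.0 and the build GRCm39. Per the file headers the authors counted reads over exons with featureCounts 2.0.3 in Ensembl release 112 with an added GFP entry; strand, pair and multimapping settings are not legible there. What the authors deposited are raw gene counts. All sample columns were used.

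Symbols came from GENCODE M21 by identifier (51880 of 57133 genes, 90.8%). CPM are counts over TMM library sizes, computed within each table. Tests were two-sided quasi-likelihood tests of edgeR 4.0.16 in R 4.3.3 with filterByExpr, on 12 no-surgery libraries, 6 NX, 12 IRI or all 18 NX and IRI libraries, called at a Benjamini-Hochberg adjusted p under 0.05 over all genes; changes are log2 ± SE. The test was tested on simulated counts. Named members are, for sex and for IRI against NX in WT, up to 15 called in each direction with at least 1 CPM in the higher group, with values by library for up to 5, for genotype and interactions the smallest p where none was called, and always Cyp2e1, Cyp4a14, Cyp7b1, Cyp24a1, Cyp2j13 and Cyp27b1; calls at lower levels were also named. Alternatives were RLE, no filter, DESeq2 1.42.0, a replicate block, only the groups compared and leaving out libraries. The members and lists were chosen with earlier results of these data known.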

Additional observations from a re-analysis of the deposited data

Results flagged for a closer look

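In the groups of 6 libraries, 8 of 84 tests (42 members in WT and TG after IRI) found a library standing far from its group. Chance gives about 1 in 20 for normally distributed values. The CPM were not logged and can be skewed, so the number found cannot be weighed against that rate. WT IRI replicate 5 was highest for Cyp4a14 (168 CPM, next 44.1), Cyp2d26 (226, next 164) and Cyp4f18 (3.02, next 1.19). The library labelled WT IRI replicate 1 was highest for Cyp2b10 (3.84 CPM, next 0.74), and WT IRI replicate 4 for Cyp2c23 (24.2 CPM, next 17.1). TG IRI replicate 2 was highest for Cyp24a1 (290 CPM, next 149) and Cyp2b10 (7.10 CPM, next 1.93). TG IRI replicate 4 was lowest for Cyp20a1 (8.74 CPM, next 10.3).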

How the results depend on the processing

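Leaving out 1 library at a time gave 15 to 19 called members for sex in WT, 16 to 19 for sex in TG, 10 to 16 for IRI against NX in WT, 7 to 17 in TG and 0 to 1 for TG against WT after NX; the other genotype comparisons and both interactions stayed at 0. The lowest TG count, 7, was without TG NX replicate 1, where Cyp4a14 turned to 0.27 (lowest -3.85, without TG NX replicate 0); it was also 0.27 with that library and WT IRI replicates 1 and 5 left out together, an alternative chosen after seeing the data. Genotype counts moved from 0 with no count filter to 1 in females (Cyp2c23), 2 after NX (Cyp2e1 and Cyp4a14) and 1 after IRI (Cyp7b1), and with DESeq2 to 1 after NX and 4 after IRI; without the 3 fat-marker libraries (WT NX replicate 0, WT female replicate 1 and TG male replicate 1), also chosen after seeing the data, it was 1 after NX. The causes were not tested. Calls lost in some settings were those of Cyp2j6, Cyp2j9, Cyp2s1, Cyp2c23, Cyp2d12 and Cyp4a10 for sex in WT, and of Cyp26b1, Cyp27a1, Cyp4f14, Cyp2e1 and Cyp2f2 for IRI in WT. For sex in TG they were Cyp24a1, Cyp2b10, Cyp2j6, Cyp2u1 and Cyp4a32; for IRI in TG, Cyp1a1, Cyp20a1, Cyp24a1, Cyp27b1, Cyp3a13, Cyp4a10, Cyp4a14, Cyp4a31 and Cyp4f18. For sex and IRI, gained calls were followed by gene only for the named members. These were Cyp24a1 for sex in WT, with only the groups compared and with no filter, and Cyp7b1 for IRI in TG. Other members gained calls in some settings and are not listed. Correlations between same-numbered libraries were low (-0.035 to 0.265). Those of the no-surgery libraries were all positive and highest for replicate 0 in each comparison. Whether libraries pair was not tested. With the replicate block 21 and 20 members were called for sex and 13 and 14 for IRI, in WT and TG, and 0 in the other comparisons. For IRI against NX and its interaction, the block fit kept only replicate numbers found in every group. IRI libraries without a same-numbered NX library were left out of it. Most counts were even (37.3 to 41.9% odd), and halved counts, added later, kept every count within 1.5 times.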
